A study of Danio rerio with 4 samples.

Results

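The genes described here are 10 transcription factor genes of the endocrine pancreas: neurod1, insm1a, insm1b, pdx1, pax6b, isl1, nkx2.2a, mnx1, rfx6 and mafa. They were taken by name from the 42298 genes of the deposited tables, and all 10 were found. The samples were mCherry-positive cells sorted from dissociated whole zebrafish larvae at 5 dpf (days post-fertilization), with the mCherry reporter driven by the insulin promoter in Tg(ins:mCherry). The 2 wild-type libraries came from larvae with the transgene alone, and the 2 mutant libraries from transgenic larvae labelled alms1-/-. The alms1 allele, and whether replicate libraries came from separate sorts or clutches, are not stated in the labels or methods, and the p-values therefore cover the spread between libraries alone, which may be a technical one. The methods give the strain as Tubingen. Larvae were pooled and dissociated whole, so that each library stands for many animals. The reads used, which were exon reads or, for genes without an annotated exon, all gene reads, numbered 42761199 to 50467517 per library.

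Islet cells arise from endoderm progenitors in which a cascade of transcription factors first switches on an endocrine programme and then settles the hormone that a cell makes. The basic helix-loop-helix factor NeuroD1 and the zinc finger factors of the Insm1 family act early in that cascade and stay on in mature endocrine cells. In mammals Pdx1, MafA and NeuroD1 bind the insulin promoter together, while Isl1, Pax6, Nkx2.2, Mnx1 and Rfx6 are needed for islet cell types to form or to be kept. Most of these factors also work outside the islet, in neurons, retina, pituitary or enteroendocrine cells, so that their transcripts do not mark β-cells alone.

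The samples are labelled as enriched for β-cells, but insulin reads were few in wild type. The insulin gene ins had 20 and 61 reads in the wild-type libraries, and the second insulin gene insb had 151 and 16. In the mutants ins had 534 and 447 reads and insb had 864 and 807. The 10 skin markers examined summed to 77034 and 45866 TPM in wild type, against 11645 and 14928 in the mutants. Here TPM are reads relative to gene length, introns included, and to the library. The genes below are therefore described in mCherry-positive fractions, and which cells their reads came from cannot be told. Fewer cells of a type and less RNA per cell cannot be told apart in such samples. The targeted gene alms1 had 24.9 and 23.1 normalized CPM in wild type, against 8.98 and 18.4 in the mutants. The difference did not pass the test, at -0.81 on the log2 scale (SE 0.37, edgeR adjusted p = 0.104). The reads of alms1 were 1149 and 832 in wild type, against 443 and 1131 in the mutants. In TPM alms1 had 3.44 and 2.02 compared with 1.65 and 4.78, and the groups overlapped. Whether both mutant libraries were lower thus depended on the scale.

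The genes were short for the most part, and their reads could be assigned. All positions are on GRCz10, as the files give them. neurod1 lies on the minus strand of chromosome 9 from 44489979 to 44493150, insm1a on the minus strand of chromosome 20 from 48675352 to 48677782, and insm1b on the plus strand of chromosome 17 from 41475068 to 41477266. pdx1 lies on the plus strand of chromosome 24 from 21539021 to 21541529, mafa on the plus strand of chromosome 18 from 29423918 to 29435605, and isl1 on the minus strand of chromosome 5 from 40128427 to 40133912. pax6b and mnx1 are both on the plus strand of chromosome 7, from 15619410 to 15647807 and from 40367193 to 40369989. nkx2.2a lies on the minus strand of chromosome 17 from 42775852 to 42783560, and rfx6 on the minus strand of chromosome 20 from 42609213 to 42637374. In the deposited tables the exon length of all 10 is the whole gene span, introns included, and no other annotated gene overlaps it. The span was 2199 to 7709 bp for 7 of the genes, 11688 bp for mafa, 28162 bp for rfx6 and 28398 bp for pax6b. Every read was uniquely mapped for 9 of the genes, and 97.2% were for rfx6.

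Levels between genes were compared as TPM, which divide reads by gene span, introns included. The order of the genes therefore depends on span. In wild type pax6b had a mean of 606.5 reads, compared with 528.5 for insm1a, but a lower TPM. Detection required, in both libraries of a group, a minimum of 10 reads and 1 TPM. In wild type 8 of the 10 genes were detected, and mnx1 and rfx6 were not. In the mutants all 10 were detected. After subtraction of the long-gene level, explained below, 8 were detected in each group. In wild type neurod1 stood highest at 50.3 ± 22.5 TPM (SD, n = 2), apart from insm1a, the next in order, at 22.5 ± 7.21. From insm1a through insm1b (16.4 ± 4.52), isl1 (11.1 ± 4.38) and mafa (10.1 ± 3.45), each gene overlapped the next. pdx1 followed at 6.22 ± 0.974, below both mafa libraries, and it overlapped nkx2.2a (4.46 ± 2.62), which overlapped pax6b (2.21 ± 0.816). mnx1 (0.873 ± 0.381) and rfx6 (0.332 ± 0.0397) were lowest, without overlap with the gene above each of them.
In the mutants neurod1 was again highest, at 68.9 ± 18.0 TPM (SD, n = 2). isl1 (30.1 ± 9.38) and pdx1 (20.9 ± 12.9) came next, and their libraries overlapped. They were followed by insm1a (16.8 ± 6.75), insm1b (14.3 ± 1.86), mafa (11.6 ± 1.65), nkx2.2a (10.1 ± 0.326), mnx1 (6.86 ± 5.88), pax6b (6.37 ± 1.09) and rfx6 (1.46 ± 0.0860). Neighbours in this order did not overlap for neurod1 over isl1, insm1b over mafa, mafa over nkx2.2a and pax6b over rfx6, and the other neighbours overlapped. Together the 10 genes took 0.0121% and 0.00967% of the reads used in wild type, against 0.0135% and 0.0144% in the mutants.

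**Figure D1:**
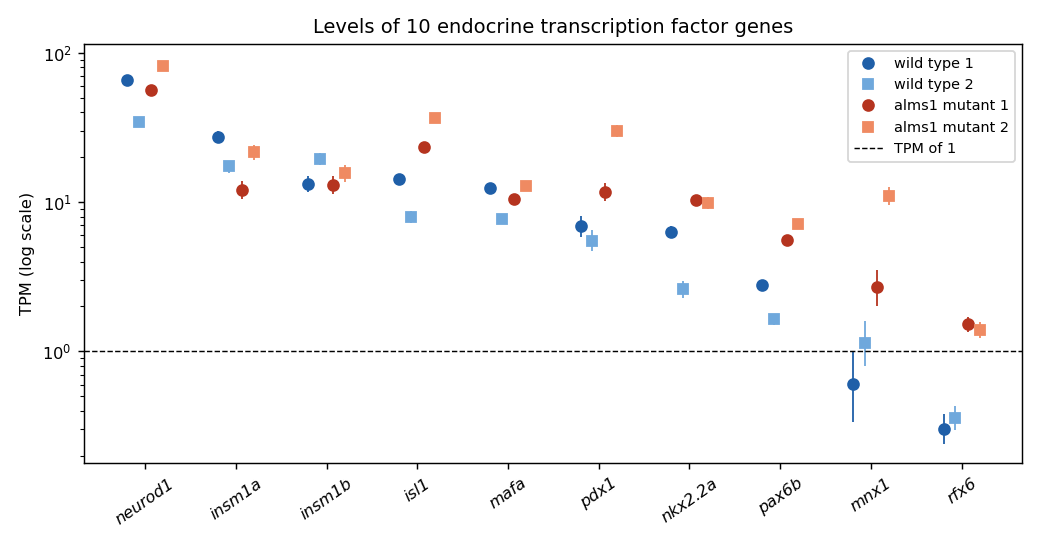
TPM on a log scale for the 10 genes, ordered by their wild-type mean, with 1 point per library and bars for the exact Poisson 95% interval of the reads, which covers counting error only. The dashed line is a TPM of 1. neurod1 stands highest in both groups, at 34.4 to 66.3 in wild type and 56.2 to 81.6 in the mutants, and rfx6 lies above the line in the mutant libraries only.

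The comparison of genotypes asked which of these genes differed between alms1 mutant and wild-type fractions. Fold changes are mutant over wild type, from edgeR's quasi-likelihood test with TMM normalization and Benjamini-Hochberg adjustment over the 28079 genes tested (called below as edgeR adjusted p). The values in single libraries are given as normalized CPM, which are reads relative to the library total after TMM scaling and not divided by span. Before adjustment, 3 of the 10 genes had an edgeR p under 0.05, beside 6958 higher and 7922 lower among the 28079 genes tested. By edgeR adjusted p, 2 of the 10 fell in the mutants, insm1a and mafa, and 0 rose. Among all genes 24.3% were called lower and 19.2% higher, or 43.5% in either direction, so that 2 of 10 was no more than the share of the whole table. The median log2 fold change of the 10 genes was 0.39, beside 0.03 over all genes tested. Without overlap between the groups, 5 genes were higher and 4 were lower in normalized CPM, compared with 39.1% and 37.8% of all genes. In TPM 6 were higher and 0 were lower without overlap, compared with 58.0% and 14.1% of all genes. The median of all genes was itself shifted by 0.69 on log2(TPM + 1).

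neurod1, which drives endocrine differentiation and is kept on in β-cells, had 1867 and 1195 reads in wild type, against 1273 and 1628 in the mutants. In normalized CPM these were 40.5 and 33.2 compared with 25.8 and 26.5, so that both mutant libraries lay below both wild-type libraries. In TPM they were 66.3 and 34.4 compared with 56.2 and 81.6, and the groups overlapped. The log2 fold change of -0.50 (SE 0.25, edgeR adjusted p = 0.134) did not pass the test, and its sign turned on the TPM scale and after the long-gene level, given below, was subtracted.
insm1a encodes a zinc finger repressor of endocrine and neuronal precursors, and it had the lowest log2 fold change of the group. It had 595 and 462 reads in wild type, against 209 and 330 in the mutants. The wild-type libraries were close to each other at 12.9 and 12.8 normalized CPM, and the mutants were at 4.24 and 5.36, without overlap. The fall was 2.68-fold, with a log2 fold change of -1.42 (SE 0.37, edgeR adjusted p = 0.0152). The call was lost without mutant replicate 1 (edgeR adjusted p = 0.0880), where 16.1% of all genes were called lower and 10.1% higher, and without mutant replicate 2 (edgeR adjusted p = 0.0542), where 14.0% were called lower and 8.11% higher. Over all alternatives its adjusted p ran from 0.000434 to 0.444 by the tools named in the methods (edgeR, DESeq2 and limma). In TPM insm1a had 27.6 and 17.4 in wild type, against 12.0 and 21.6 in the mutants, which overlapped, and limma-trend on log2(TPM + 1) gave a change of -0.42 (adjusted p = 0.435).
insm1b, the second copy of the same gene in zebrafish, varied more in wild type. It had 258 and 472 reads in wild type, and in normalized CPM it had 5.59 and 13.1 compared with 4.13 and 3.51 in the mutants. Both mutant libraries were lower than both wild-type libraries, but the log2 fold change of -1.29 (SE 0.50, edgeR adjusted p = 0.0644) did not pass. Without wild-type replicate 1, the lower of the pair, it was -1.69 with an edgeR adjusted p of 0.00696, the lowest of a range that reached 0.777 over the alternatives. The Wald test of DESeq2 also called it lower, at -1.28 (adjusted p = 0.0324).

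pdx1 is the homeodomain factor of pancreas formation and of insulin transcription. It had 154 and 152 reads in wild type, against 211 and 474 in the mutants. In normalized CPM these were 3.34 and 4.23 compared with 4.28 and 7.70, and the groups were separated by a narrow margin between wild-type replicate 2 and mutant replicate 1. The log2 fold change was 0.66 (SE 0.48, edgeR adjusted p = 0.284). In TPM the groups were farther apart, and the wild-type libraries had 6.91 and 5.53 and the mutants 11.8 and 30.0.
mafa encodes the basic leucine zipper factor that in mammals marks mature β-cells and activates the insulin gene. It had 1302 and 980 reads in wild type, against 872 and 940 in the mutants, or 28.2 and 27.3 normalized CPM compared with 17.7 and 15.3. The groups did not overlap, and the spread within each was small. The log2 fold change was -0.75 (SE 0.26), and its edgeR adjusted p of 0.0476 lay just under the threshold of 0.05. The call was lost when any 1 of the 4 libraries was left out, at edgeR adjusted p = 0.132 and 0.0770 without wild-type replicates 1 and 2 and 0.131 and 0.244 without mutant replicates 1 and 2, and over all alternatives it ran from 0.0273 to 0.725. In TPM mafa had 12.5 and 7.66 in wild type, against 10.4 and 12.8 in the mutants, with overlap, and the sign of the change turned on that scale.

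isl1 encodes a LIM homeodomain factor of all islet cell types and of motor and sensory neurons. Its reads were 692 and 481 in wild type, against 921 and 1269 in the mutants. It had 15.0 and 13.4 normalized CPM in wild type, against 18.7 and 20.6 in the mutants, without overlap, at a log2 fold change of 0.47 (SE 0.28, edgeR adjusted p = 0.206). In TPM the libraries were farther apart, with 14.2 and 8.01 compared with 23.5 and 36.8.
pax6b is the zebrafish Pax6 copy that acts in the islet, and its product carries a paired domain and a homeodomain. It had 704 and 509 reads in wild type, against 1136 and 1276 in the mutants, or 15.3 and 14.2 normalized CPM compared with 23.0 and 20.7. Both mutant libraries were higher, at a log2 fold change of 0.57 (SE 0.28, edgeR adjusted p = 0.123). In TPM it had 2.79 and 1.64 in wild type, against 5.60 and 7.14 in the mutants.
nkx2.2a encodes a homeodomain repressor that in the mouse keeps β-cells from other islet fates. With 432 and 220 reads in wild type, against 568 and 478 in the mutants, it was the only one of the 10 genes whose groups overlapped in normalized CPM, at 9.36 and 6.12 compared with 11.5 and 7.77. Its log2 fold change was 0.31 (SE 0.41, edgeR adjusted p = 0.549). In TPM it had 6.31 and 2.61 in wild type, against 10.3 and 9.86 in the mutants.

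mnx1 and rfx6 had the fewest reads and the lowest TPM of the 10 genes in wild type. In the mutants rfx6 had a mean of 277 reads, compared with 269.5 for insm1a and 210 for insm1b. mnx1 encodes a homeodomain factor of β-cells and of motor neurons. Its reads were 15 and 35 in wild type (exact Poisson 95% intervals 8.40 to 24.7 and 24.4 to 48.7) and 54 and 194 in the mutants (40.6 to 70.5 and 168 to 223). These are 0.325 and 0.973 normalized CPM compared with 1.09 and 3.15, so that mutant replicate 1 lay close to wild-type replicate 2 and mutant replicate 2 stood well above. The log2 fold change of 1.72 (SE 0.84, edgeR adjusted p = 0.125) was the highest of the 10 and had the widest error.
rfx6 encodes a winged helix factor that directs islet cell formation in the mouse. It had 76 and 111 reads in wild type, against 306 and 248 in the mutants, or 1.65 and 3.09 normalized CPM compared with 6.201 and 4.03. The groups did not overlap, and the log2 fold change was 1.11 (SE 0.54, edgeR adjusted p = 0.123). In TPM it had 0.304 and 0.360 in wild type, against 1.52 and 1.40 in the mutants.

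Because reads were counted over the whole span, each gene was set against the reads that long genes collect. As a reference level, the 10th percentile of reads per kb was taken over 1509 protein-coding genes that span 80 to 160 kb. This long-gene level was 8.03 and 5.23 reads per kb in wild type, against 15.0 and 21.8 in the mutants, and it was higher in both mutant libraries. neurod1 had 73.3 and 72.1 times this level in wild type, against 26.7 and 23.6 times in the mutants. insm1a had 30.5 and 36.4 times the level in wild type, against 5.73 and 6.24 times in the mutants, and insm1b had 14.6 and 41.1 compared with 6.18 and 4.51. mafa stood at 13.9 and 16.04 times in wild type, against 4.97 and 3.69 times in the mutants.
isl1 lay at 15.7 and 16.8 times the level in wild type, against 11.2 and 10.6 times in the mutants, and pdx1 at 7.65 and 11.6 compared with 5.60 and 8.68. nkx2.2a had 6.98 and 5.46 times in wild type, against 4.91 and 2.85 times in the mutants. pax6b, with the longest span, had 3.09 and 3.43 compared with 2.67 and 2.06 times the level. neurod1, insm1a, insm1b, mafa, isl1, nkx2.2a and pax6b were nearer to the level in both mutant libraries than in both wild-type libraries. The level itself was higher in the mutants, so that a gene with steady reads also comes nearer to it. isl1 and pax6b came nearer although their normalized CPM was higher in both mutant libraries. The share of all genes that came nearer was not counted. mnx1 crossed the level, with 0.668 times in wild-type replicate 1, 2.39 times in replicate 2, and 1.29 and 3.19 times in the mutants. rfx6 lay below it in all 4 libraries, at 0.336, 0.754, 0.724 and 0.405 times, so that its reads were fewer than such a span holds at that level. Whether the level stands for transcripts was not tested.

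**Figure D2:**
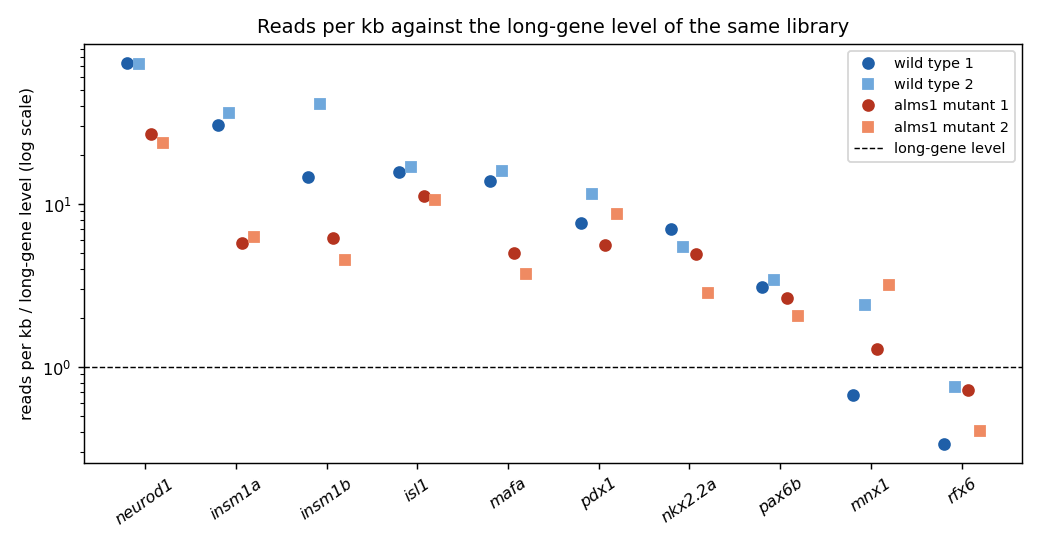
Reads per kb of each gene divided by the long-gene level of the same library, on a log scale, with 1 point per library and a dashed line at the level itself. neurod1 lies at 72.1 to 73.3 times the level in wild type and 23.6 to 26.7 times in the mutants, mnx1 lies on both sides of the line, and rfx6 stays below it in every library.

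The fold changes of all genes followed span, and the 10 genes were therefore placed among genes of like span. The median log2 fold change of protein-coding genes was -0.64 at spans of 2 to 4 kb, -0.10 at 16 to 32 kb and 0.67 at 80 to 160 kb. Beside the 500 protein-coding genes nearest in span, neurod1 lay 0.12 above the median, at percentile 52.8. insm1a lay 0.86 below it (percentile 32.4), insm1b 0.70 below it (percentile 33.8) and mafa 0.37 below it (percentile 40.6). The other genes lay above: mnx1 by 2.45 (percentile 87.0), pdx1 by 1.39 (percentile 73.8), rfx6 by 1.16 (percentile 78.4), isl1 by 1.15 (percentile 70.8), nkx2.2a by 0.75 (percentile 67.6) and pax6b by 0.66 (percentile 66.8). The 10 genes thus ran from percentile 32.4 to 87.0 of the genes of like span, with 7 above the median.

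**Figure D3:**
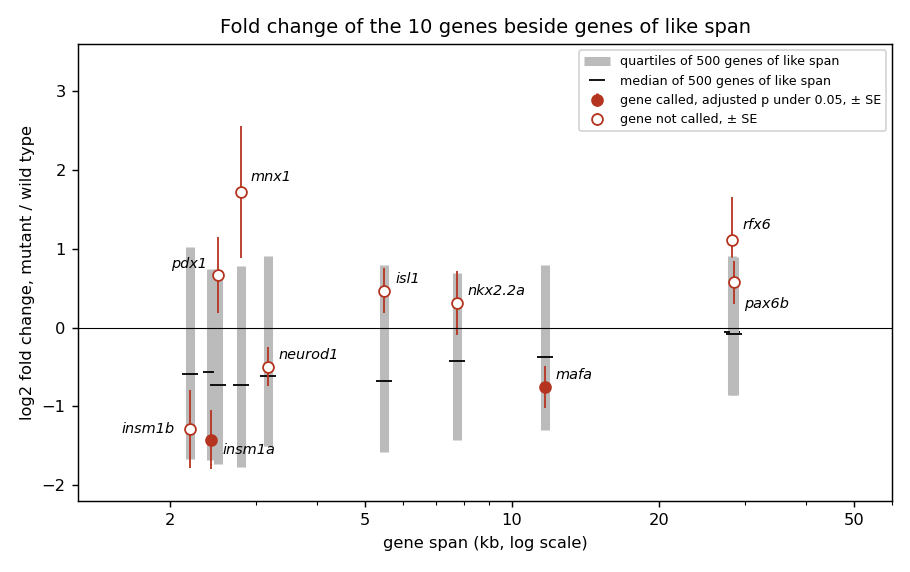
log2 fold change of each gene (circles, ± SE, filled where the edgeR adjusted p was under 0.05) against its span on a log axis, with a grey bar for the quartiles and a dash for the median of the 500 protein-coding genes nearest in span. mnx1, 2.45 above the median of such genes, and rfx6 lie above the upper quartile, and the 2 called genes, insm1a and mafa, lie within the quartiles.

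In every library a curve over span was then fitted to the log CPM of each gene relative to its mean over all libraries. The curve was removed, without use of the genotype labels, and the test was repeated. insm1a was still called lower, at a log2 fold change of -1.23 (SE 0.37, edgeR adjusted p = 0.0303), while 23.9% of all genes were called lower and 14.0% higher. mafa was not called, at -0.54 (edgeR adjusted p = 0.131). isl1, at 0.79 (SE 0.29, edgeR adjusted p = 0.0580), and mnx1, at 1.97 (SE 0.84, edgeR adjusted p = 0.0932), came nearest to the threshold among the genes with positive values.
When the long-gene level was instead subtracted from the reads of each gene, rfx6 kept no read in any library and was not tested, and 0 of the other 9 genes passed, while 15.4% of all genes were called lower and 10.6% higher. neurod1 then had a log2 fold change of 0.12 (adjusted p = 0.756), insm1a of -0.96 (adjusted p = 0.221) and isl1 of 1.09 (adjusted p = 0.0789), all by edgeR.
On log2(TPM + 1), limma-trend called 5 of the 10 genes higher and 0 lower, beside 35.2% of all genes called higher and 5.87% lower. These were pdx1 (1.47, limma adjusted p = 0.00804), isl1 (1.38, 0.00768), mnx1 (1.85, 0.00355), pax6b (1.21, 0.0456) and rfx6 (0.89, 0.0362). Relative to the median shift of 0.69 on that scale, the changes were 1.16 for mnx1, 0.78 for pdx1, 0.69 for isl1, 0.53 for pax6b and 0.20 for rfx6, and those of insm1a and insm1b were -1.10 and -0.85.

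**Figure D4:**
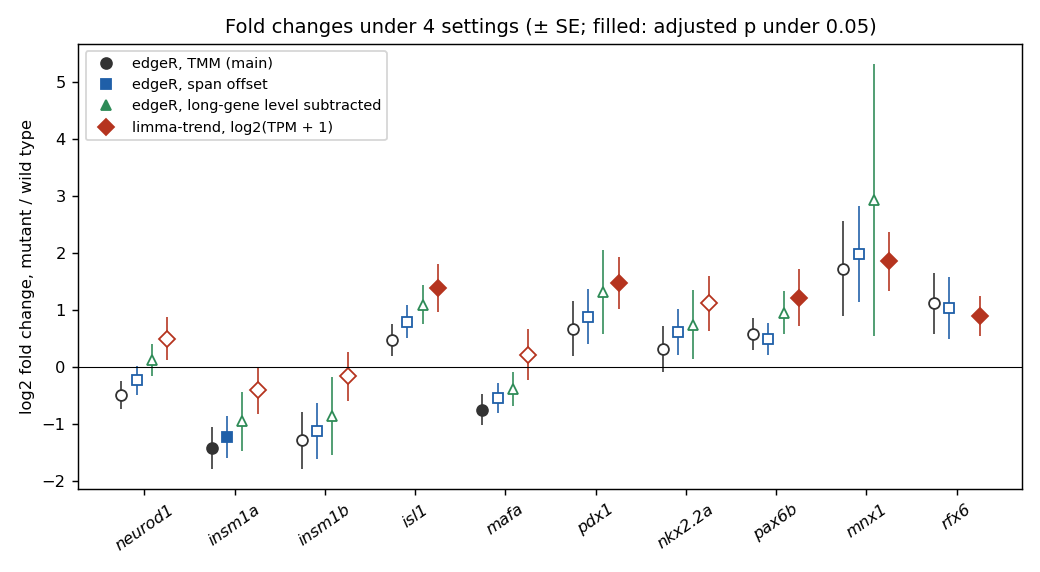
log2 fold change (± SE) of the 10 genes under 4 settings, filled where the adjusted p was under 0.05. insm1a and insm1b lie below 0 in each of the 4, pdx1, isl1, nkx2.2a, pax6b and mnx1 lie above 0 in each, and neurod1 and mafa change sign between settings. rfx6 has no value after the subtraction.

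Ratios between genes in the same library do not depend on how libraries are scaled, and these ratios differed between the groups for some pairs. They are given as a description, with no test. As given above, insm1a had the lowest log2 fold change of the genes described here, while those of isl1 and pdx1 were positive. The ratios of isl1 and pdx1 to insm1a come from the same libraries and therefore restate these fold changes. How often pairs among all genes separate in this way was not counted. isl1 had 1.16 and 1.04 reads for each read of insm1a in wild type, against 4.41 and 3.85 in the mutants. For pdx1 the ratio to insm1a was 0.259 and 0.329 in wild type, against 1.01 and 1.44 in the mutants. After subtraction of the long-gene level the ratio of pdx1 to insm1a was 0.233 and 0.310 compared with 1.00 and 1.51. For isl1 to insm1a it was then 1.13 and 1.01 compared with 4.85 and 4.15, so that both pairs stayed apart.
Relative to neurod1, insm1a had 0.319 and 0.387 reads in wild type, against 0.164 and 0.203 in the mutants. isl1 had 0.371 and 0.403 compared with 0.723 and 0.779, and pax6b 0.377 and 0.426 compared with 0.892 and 0.784. insm1b, at 0.138 and 0.395 compared with 0.160 and 0.133, and mafa, at 0.697 and 0.820 compared with 0.685 and 0.577, showed smaller differences, and the insm1b groups overlapped. After the subtraction the ratio to neurod1 overlapped between the groups for nkx2.2a, at 0.201 and 0.153 compared with 0.369 and 0.199, and rfx6 had no reads left. For mnx1 it was 0 and 0.0170 compared with 0.00980 and 0.0853, also with overlap.

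**Figure D5:**
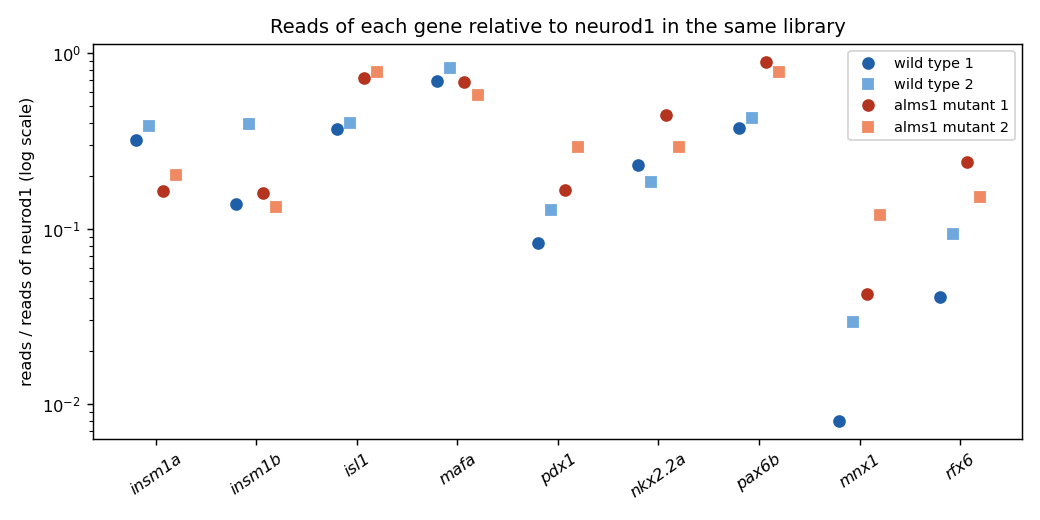
Reads of each gene divided by the reads of neurod1 in the same library, on a log scale. Mutant libraries lie above wild type for isl1 (0.723 and 0.779 compared with 0.371 and 0.403), pdx1, nkx2.2a, pax6b, mnx1 and rfx6, and below for insm1a and mafa, while the groups of insm1b overlap. The reads are those before subtraction of the long-gene level, after which nkx2.2a and mnx1 overlap and rfx6 has none.

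Other transcription factor genes of the pancreas and islet were examined as a list of 34, of which 32 were tested. Of these 3 were called higher, 9 lower and 20 were not called, with a median log2 fold change of -0.29. The proneural gene ascl1b, which starts the endocrine programme in zebrafish, fell by 2.24 on the log2 scale (SE 0.37, edgeR adjusted p = 0.00244). The islet gene mafba (-1.79, SE 0.25) and sox4a (-1.66, SE 0.24), a gene of many progenitors, were called lower too. pbx1a, which had the most reads of the list, had a log2 fold change of 0.31 (SE 0.25). After the span correction 2 of the list were called higher and 7 lower. With the long-gene level subtracted, 1 was called higher and 3 lower. ascl1b and sox4a were then not called (edgeR adjusted p = 0.0509 and 0.0549).
Genes of neuroendocrine secretion, which endocrine cells and neurons share, had a median of 0.39, with 5 of 19 called higher and 4 lower. chga, the granin of secretory granules, rose by a log2 fold change of 1.28 (SE 0.30), and cpe, the prohormone carboxypeptidase gene, fell by 0.95 on the log2 scale (SE 0.24). syt1a, a synaptic vesicle gene that spans 274888 bp, was called higher at 0.67 (SE 0.23) but not after the span correction, which left 1 gene of the list higher and 1 lower.
Among 12 β-cell markers, 5 were called higher and 0 lower, with a median of 1.03. ins rose by a log2 fold change of 3.10 (SE 0.68, edgeR adjusted p = 0.00758), insb by 3.03 (SE 0.76), slc2a2, a glucose transporter gene, by 1.82 (SE 0.43), and abcc8, a subunit of the ATP-sensitive potassium channel, by 1.00 (SE 0.23). After the span correction 3 of the list were called higher, and abcc8, which spans 129133 bp, was not (0.27, edgeR adjusted p = 0.359). After subtraction of the long-gene level the log2 fold change was 4.39 (SE 2.10) for ins and 3.97 (SE 2.04) for insb, and neither passed, at edgeR adjusted p = 0.180 and 0.205.
Of 9 other islet hormone genes, 5 were called higher and 3 lower. The somatostatin genes sst1.2 (2.74, SE 0.35), sst2 (2.58, SE 0.38) and sst1.1 (2.15, SE 0.44) rose. gip had 186 and 292 reads in wild type and 0 in both mutant libraries, at least 111-fold lower in normalized CPM when 3 reads are allowed in each mutant library, but none of its reads was uniquely mapped.

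Markers of other cells that use these transcription factors, or that the sort could hold, moved as follows. Of 13 neuron markers 1 was called higher and 3 lower, among them elavl3 (-0.80, SE 0.23), and their summed TPM was 279 and 184 in wild type, against 286 and 341 in the mutants. Of 14 retina markers 0 were called higher and 1 lower (opn1mw1, -1.56, SE 0.24), with summed TPM of 4514 and 3180 compared with 5038 and 5562. Of these sums rho, which had the most reads of the list, made up 2325 and 1541 compared with 2884 and 3097. None of the reads of rho was uniquely mapped. Of 9 tested motor neuron genes 2 rose (slc5a7a by 1.56 and lhx4 by 1.34 on the log2 scale) and 1 fell, phox2bb, by 1.55, with summed TPM of 47.2 and 29.2 compared with 46.5 and 51.5. Of 7 pituitary genes 2 were called higher, pomca (1.56, SE 0.39) and gh1 (3.12, SE 1.06), with summed TPM of 9.44 and 5.78 compared with 33.1 and 38.5. However, gh1 had 27 and 1 reads in wild type, against 171 and 125 in the mutants. It was not called after subtraction of the long-gene level (edgeR adjusted p = 0.0686), which left 1 gene of the list called higher. Of 7 enteroendocrine genes 0 were called higher and 1 lower, penka (-0.84, SE 0.26), with summed TPM of 94.5 and 91.1 compared with 108 and 114. Of 6 tested hair cell genes 2 were called higher and 2 lower, with summed TPM of 220 and 242 compared with 263 and 236.
Acinar genes, of which 8 of 9 rose, summed to 1910 and 1856 TPM in wild type, against 12395 and 11419 in the mutants. Skeletal muscle genes, of which 6 of 8 rose, summed to 1898 and 1597 compared with 8488 and 7964. All 10 skin markers fell, with a median log2 fold change of -2.81. Defining markers were at 0 reads in no library for the skin, acinar, muscle, neuron and retina lists. The part of these lists in the values of the 10 transcription factor genes was not tested.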

How the data were processed

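RNA-seq of mCherry-positive cells was deposited as 4 tables, 1 per library. Per the methods, the authors aligned fragments with CLC Genomics Server to GRCz10, with the annotation and filters on reads not stated. The library kit, Nextera XT, keeps no strand. The deposited counts are reads assigned to each gene, without normalization. The authors derived the deposited TPM and RPKM by dividing reads by gene length and scaling to the library sum (TPM) or to mapped reads (RPKM). Exon length equals gene length for 99.4% of genes. All exon reads were used, or all gene reads for the 15924 genes without an annotated exon. Chromosome numbers were assigned by shared symbols in a GRCz12tu gene table, with no coordinate taken from it. Of shared genes, 98.5% to 99.1% carried the same chromosome.

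Libraries were compared with edgeR 4.0.16 in R 4.3.3 (TMM, filterByExpr, quasi-likelihood F test, Benjamini-Hochberg at 0.05), checked on simulated counts. The SE is the log2 fold change divided by the square root of F. The reads used per library, 42761199 to 50467517, limit the precision of low counts, and Poisson intervals at 95% cover counting error only. Mapped reads, as implied by the RPKM, were 63520302 and 60691966 in wild type, against 61311312 and 70979087 in the mutants. Replicates differed by more than sampling noise (chi-square 159 and 57.3 per degree of freedom). Alternatives used DESeq2 1.42.0, limma 3.58.1, other filters, other reads, a replicate block, span corrections and leaving out each library. Python 3.11.15, pandas 2.3.3 and matplotlib 3.10.9 made the tables and plots. The 10 genes and the lists were chosen with earlier results of these data known. Beside the 10 genes the text names ins, insb and, of each list, up to 3 genes of lowest adjusted p and that with most reads. No promoter or protein sequence was analysed here.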

Additional observations from a re-analysis of the deposited data

Results flagged for a closer look

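The tables also have a column of intron reads, which the comparisons did not use. Since the exon length of the 10 genes is the whole span, what these reads are is not stated. Their share of the reads of a gene was higher in both mutant libraries than in both wild-type libraries for 4 of the 10 genes and lower for 2, compared with 18.4% and 17.5% of 27384 genes. For isl1 the mean was 5.34% in the mutants, compared with 1.13% in wild type, and the reads numbered 13 and 2 in wild type, against 56 and 66 in the mutants. For pdx1 the mutant mean was 4.46%, compared with 3.47%, for insm1a it was 3.74%, compared with 1.98%, and for neurod1 it was 0.479%, compared with 0.274%. The share was lower for mnx1, at 16.7% and 14.6% in wild type, against 8.47% and 6.28%, and for pax6b, at 1.12% and 0.391%, against 0.176% and 0.390%. These shares rest on 24 reads or fewer in each library for pdx1, insm1a, neurod1, mnx1 and pax6b.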

How the results depend on the processing

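The comparison of the 10 genes was repeated under 16 alternatives. No gene was called higher except on the TPM scale. Of 156 values for single genes, 124 kept their direction and side of the threshold. With the direction kept, 15 lost a call and 10 gained one. The other 7 turned in sign, among them mafa on both TPM scales, where its call was lost as well. The number called lower was 2 in the comparison as given. It was 1 with the size factors of DESeq2 in edgeR and 1 without a filter on low counts. It was also 1 with the replicate block and 1 with the span curve removed. Among genes under 10 kb it was 0, but that fit held 7 of the 10 genes, without mafa, pax6b and rfx6. It was also 0 after the long-gene level was subtracted, 0 on log2(TPM + 1) and 0 on log2(TPM + 0.1). It was 3 with the Wald test of DESeq2, which added insm1b, and 0 to 2 when each library was left out. The number called higher was 5 on log2(TPM + 1) and 3 on log2(TPM + 0.1).

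Over all genes, 9871 were called higher and 1648 lower on log2(TPM + 1), 8768 and 1495 on log2(TPM + 0.1), 2455 and 3579 after the subtraction, and 1553 and 1643 among genes under 10 kb, where fewer genes are tested. The Wald test of DESeq2 called 6350 genes higher and 7474 lower. With its size factors in edgeR these numbers were 5409 and 6796, and without a filter on low counts they were 5260 and 6836. Leaving out each library gave 2310 to 6769 higher and 3975 to 6563 lower. neurod1 turned to 0.49 on log2(TPM + 1), 0.50 on log2(TPM + 0.1), 0.12 after the subtraction and 0.045 among genes under 10 kb. mafa turned to 0.21 and 0.24 on the TPM scales, and nkx2.2a to -0.0057 without mutant replicate 1, the lowest value of a range that reached 0.75 with each library left out. With RPKM in place of TPM, 5 genes were detected in wild type and 6 in the mutants. At a TPM of at least 5 the numbers were 6 and 8, and after the subtraction they were 8 and 8. Left-out libraries gave 8 to 9 genes detected in wild type and 10 in the mutants. The cause of the other differences was not tested.

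With the replicate number as a block, mafa was not called (adjusted p = 0.0776 by edgeR), and 4842 and 6136 genes were called. Same-numbered libraries did not deviate together (correlation -0.0761 across genes), and the labels give them only a number. mnx1 had 15 reads in wild-type replicate 1, the library with the most reads used (50467517). It had 35 reads in wild-type replicate 2 (47766482 reads used) and 54 in mutant replicate 1 (42761199 reads used). The part of depth in these low counts was not tested.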

Other observations

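The zebrafish copies insm1a and insm1b were read in differing proportion. The ratio of insm1a to insm1b reads was 2.31 and 0.979 in wild type, against 1.02 and 1.53 in the mutants, so that it varied most between the wild-type libraries. The ratio of pdx1 to ins reads, a regulator and its target in mammals, was 7.70 and 2.49 in wild type, against 0.395 and 1.06 in the mutants, and in wild-type replicate 1 it rests on 20 reads of ins.

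Mutant replicate 2 had more reads than mutant replicate 1 for pdx1 (474 and 211) and mnx1 (194 and 54), while mafa (940 and 872) was close, at totals of 48938853 and 42761199 reads. The insulin genes ins and insb went the other way, with fewer reads in mutant replicate 2 (447 and 807) than in mutant replicate 1 (534 and 864).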
